A study of Homo sapiens with 9 samples.

Results

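Long non-coding RNAs (lncRNAs) are RNA polymerase II transcripts that act without being translated. MALAT1, TUG1, NORAD, KCNQ1OT1, PVT1 and CYTOR are among the best studied of them, and these 6 genes were followed here in 293T cells after knockdown of DIS3. They were taken as a named set and matched by symbol through their Ensembl identifiers, and all 6 were found among 61853 genes listed. 293T cells derive from human embryonic kidney and express SV40 large T antigen. By the labels, 3 libraries came from cells labelled WT and given a scramble shRNA (Scramble), and 3 came from DIS3 knockdown cells given the shRNA DIS3-sh1. The labels do not say how long the shRNA was expressed or whether the cells were a pool or a clone. A further group, DIS3-sh2, is named in the labels but was not analysed here, because the names of the other 3 columns of values matched no sample label.

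DIS3 is the catalytic ribonuclease of the nuclear RNA exosome, a complex that degrades RNA from its 3′ end. The way in which the 3′ ends of nuclear lncRNAs are made and protected differs. MALAT1 is a nuclear speckle RNA whose 3′ end is cut by RNase P and folds into a triple helix in place of a poly(A) tail. NORAD is mainly cytoplasmic and binds proteins of the Pumilio family, while KCNQ1OT1 is a nuclear antisense RNA that silences imprinted genes around KCNQ1 in cis.

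Library totals lay between 19800892 and 23532148 expected counts, and levels are given as CPM, counts per 1000000 counts after TMM scaling (edgeR's trimmed mean of M-values). DIS3 fell to 27.4 ± 0.73 CPM from 180 ± 5.62 CPM (SD, n = 3 each). Libraries of the same group correlated at r = 0.992 to 0.993 across genes, and libraries of different groups at 0.962 to 0.964. Of 10 markers of the line, 9 averaged at least 1 CPM, with LHX1 below that. Of 15 markers of other cell types, CD3E, MYH7, UMOD and SLC34A1 were at 0 in every library, and 14 averaged below 1 CPM. Their summed level was 15.4 to 16.4 CPM in Scramble and 25.4 to 29.1 CPM in DIS3-sh1, mostly COL1A1, and its part in the results below was not tested. In bulk libraries, fewer cells of a type and less RNA per cell cannot be told apart.

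The sequences below show what sets 2 of the RNAs apart, the protected 3′ end of MALAT1 and the Pumilio sites of NORAD. They are DNA letters from GENCODE 29 transcripts on GRCh38. The last 94 bases before the RNase P cut of MALAT1 lie at chr11:65506023-65506116, plus strand, with runs of at least 4 T or 4 A in capitals.
MALAT1 3′ end: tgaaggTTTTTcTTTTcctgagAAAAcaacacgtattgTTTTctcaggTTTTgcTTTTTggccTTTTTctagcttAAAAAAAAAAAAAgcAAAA
There are 6 such T runs. Some of them form the U-rich strands of the triple helix and the 13-base A run lies in its A-rich strand, while other runs belong to the stem-loop or the linker between the strands. The 58 bases that follow, chr11:65506117-65506174, are released as the tRNA-like mascRNA.
mascRNA: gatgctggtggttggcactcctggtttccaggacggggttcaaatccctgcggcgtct
NORAD-201, a transcript of 5339 bases on the minus strand of chromosome 20, holds the motif TGTANATA, the core recognised by Pumilio proteins, 15 times on its own strand. In 3 places 2 matches start 9 bases apart, shown with the motif in capitals.
NORAD bases 1436 to 1464 (chr20:36049497-36049525): tatctgTGTATATAgTGTACATAaaggac
NORAD bases 2633 to 2661 (chr20:36048300-36048328): ctatacTGTATATAtTGTATATAtaacgg
NORAD bases 3269 to 3297 (chr20:36047664-36047692): gtgctgTGTATATAgTGTATATAagcgga
Among the longest transcripts of 1623 tested lncRNA genes that reach 1 kb, 21.8% held the motif at all. NORAD ranked 2 by matches per kb (2.81). TUG1 held 2 matches, KCNQ1OT1 held 9 in 91667 bases, and MALAT1 and CYTOR held none. No count is given for PVT1.

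With DIS3-sh1, the 6 RNAs did not move together. MALAT1, NORAD and CYTOR rose, KCNQ1OT1 and PVT1 fell, and TUG1 did not pass the test. The 5 called RNAs compare with 67.0% of all 19591 genes tested (edgeR quasi-likelihood test, adjusted p under 0.05), of which 34.5% were called higher and 32.6% lower. The groups of 3 libraries did not overlap for the same 5 RNAs, and for 69.8% of all genes tested. Being called was therefore common, and the sizes and directions are what the following paragraphs give.

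**Figure D1:**
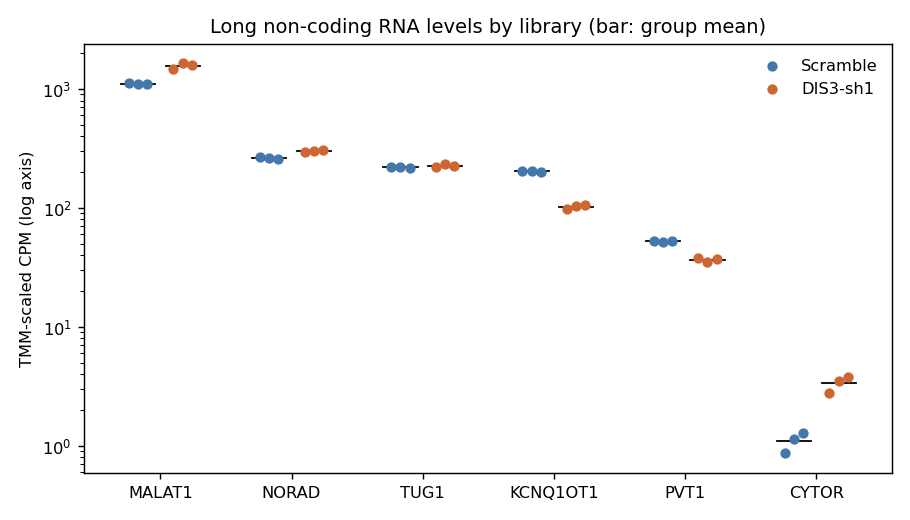
TMM-scaled CPM on a log axis for each of the 6 RNAs, with 1 point per library and a bar at each group mean (3 Scramble and 3 DIS3-sh1 libraries). KCNQ1OT1 and PVT1 sit lower in DIS3-sh1, MALAT1, NORAD and CYTOR sit higher, and TUG1 overlaps between groups.

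MALAT1 (ENSG00000251562.10, GENCODE 29 span 65497688 to 65506516 on chromosome 11) was the most abundant of the 6. Its levels were 1122, 1100 and 1094 CPM with the scramble shRNA, rising to 1486, 1640 and 1602 CPM under DIS3-sh1. Every DIS3-sh1 library lay above every Scramble library. The log2 fold change was 0.51 ± 0.03 (SE, edgeR quasi-likelihood test, adjusted p = 4.96e-16), 1.43 times the Scramble level. MALAT1 alone made up 0.108% to 0.111% of a Scramble library and 0.150% to 0.166% of a DIS3-sh1 library.

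A segment inside MALAT1, at 65502914 to 65503008, has a row of its own in the table (ENSG00000278217.1), with reads that may be split with the host. It rose by a log2 fold change of 0.46 ± 0.07, close to the value of the whole RNA. TALAM1, the antisense transcript of the locus, held 13 to 47 counts per library, 0.0517% to 0.149% of those of MALAT1, and was not called (0.67 ± 0.35, edgeR adjusted p = 0.0932).

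Genes of proteins that bind or process MALAT1 fell in RNA level. This list and the gene lists below were chosen with earlier results of these data known. Any link to the MALAT1 rise was not tested. Of 14 tested, 14 fell and 0 rose, with a median log2 fold change of -0.74 against 0.02 over all genes tested. Of all genes tested, 32.6% fell and 34.5% rose. The list held SR splicing factors stored in speckles, SON as a speckle scaffold, RNase P proteins, the RNase Z gene ELAC2 and the triple helix binder METTL16. SRSF1 fell from 492 ± 1.86 to 216 ± 9.09 CPM (log2 fold change -1.19). SRSF2 (-1.09), SRSF7 (-1.14) and SON (-0.92) fell as well, and METTL16, named after its values were seen, fell by 0.51.

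The MALAT1 rise was smaller than that of its neighbour in the genome and in the nucleus, the paraspeckle RNA NEAT1. NEAT1 rose from 200 ± 3.85 to 474 ± 7.87 CPM, a log2 fold change of 1.24 ± 0.03. Within a library, where scaling cancels, there were 5.40 to 5.74 MALAT1 counts per NEAT1 count in Scramble and 3.17 to 3.41 in DIS3-sh1. These ranges did not overlap.

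NORAD (ENSG00000260032.2, chromosome 20, 36045622 to 36050960), whose Pumilio sites are shown above, rose slightly. It measured 266.9, 264.5 and 257.8 CPM in Scramble and 295.0, 302.7 and 306.6 CPM in DIS3-sh1. The groups did not overlap, though the rise was only 1.15-fold (log2 fold change 0.20 ± 0.03, edgeR adjusted p = 2.73e-07). Both nearest tested genes showed positive values. EPB41L1, which encodes a membrane skeleton protein, rose by 0.73 ± 0.05 on the log2 scale. CNBD2, a cyclic nucleotide-binding domain gene, was not called (0.48 ± 0.23, edgeR adjusted p = 0.0637). Leaving out DIS3-sh1 replicate 1 (0.77) or scaling by upper quartiles (0.56) made it a call.

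Genes of the protein partners of NORAD fell in RNA level or were not called. Of 9 tested, 8 fell and 0 rose, with a median of -0.21, and with upper-quartile scaling 6 fell. Of all genes tested, 32.6% fell and 34.5% rose with TMM scaling. TOP1, the gene of the DNA topoisomerase in the NORAD-RBMX complex, fell from 268 ± 2.46 to 127 ± 5.68 CPM (-1.08). PRPF19 (-0.90), the mRNA export adaptor gene ALYREF (-0.57) and RBMX (-0.35) fell less. PUM2, a Pumilio gene named after its values were seen, fell by 0.12 on the log2 scale, and was not called with upper-quartile scaling (-0.03).

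Of 13 genes known as targets of Pumilio repression, mostly of mitosis and replication, 10 fell and 1 rose. Their median was -0.21, and with upper-quartile scaling 7 fell. Of all genes tested, 32.6% fell and 34.5% rose with TMM scaling. CCNB1 (-0.78), the replication licensing gene CDC6 (-0.79) and the spindle checkpoint kinase genes BUB1 (-0.57) and BUB1B (-0.48) fell most clearly. BARD1, the partner of BRCA1 and the member that rose (0.20), was named after its values were seen.

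TUG1 (ENSG00000253352.10, chromosome 22, 30969245 to 30979395), a nuclear and cytoplasmic lncRNA linked to Polycomb repression, was the member with the smallest change. It measured 222.4, 220.2 and 216.6 CPM in Scramble and 218.8, 235.8 and 224.5 CPM in DIS3-sh1. The lowest DIS3-sh1 library, replicate 1, lay inside the Scramble range. The log2 fold change was 0.04 ± 0.03 (edgeR adjusted p = 0.223). Upper-quartile scaling turned this into a call (0.12, adjusted p = 0.000716), as did leaving out DIS3-sh1 replicate 1 (0.070, adjusted p = 0.0250).

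TUG1 shares a bidirectional promoter region with MORC2, a chromatin-compacting ATPase gene that starts 947 bp away on the other strand. MORC2 fell from 110 ± 2.58 to 81.3 ± 3.08 CPM (log2 fold change -0.43 ± 0.04, edgeR adjusted p = 4.39e-11). The count ratio of TUG1 to MORC2 was 1.97 to 2.06 in Scramble and 2.65 to 2.99 in DIS3-sh1, and these ranges did not overlap. Of 4 short segments inside TUG1 with rows of their own, none was called (-0.18 to 0.18, adjusted p from 0.249 to 0.806).

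KCNQ1OT1 (ENSG00000269821.1, chromosome 11, 2608328 to 2699994), a transcript annotated as 1 exon of 91667 bases, fell most. It measured 203.5, 205.6 and 198.6 CPM in Scramble and 97.5, 104.6 and 106.2 CPM in DIS3-sh1. The highest DIS3-sh1 library was far below the lowest Scramble library. The log2 fold change was -0.98 ± 0.04 (edgeR adjusted p = 3.87e-21), a fall to 0.507 of the Scramble level. Of 293 tested lncRNA genes averaging 10 CPM or more, 2.73% had a lower value.

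KCNQ1, the potassium channel gene on the other strand in whose body KCNQ1OT1 lies, moved in the opposite direction. Scramble libraries held 20.5, 12 and 20 expected counts of it, and DIS3-sh1 libraries 95.5, 84 and 108.5. All DIS3-sh1 libraries were above all Scramble libraries, and levels rose from 0.80 ± 0.21 to 4.62 ± 0.48 CPM (log2 fold change 2.51 ± 0.22, edgeR adjusted p = 1.14e-11). There were 203 to 359 KCNQ1OT1 counts per KCNQ1 count in Scramble and 20.6 to 25.0 in DIS3-sh1. Whether counting used strand is not given in the sources used here, so reads of the pair cannot be told apart with certainty.

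**Figure D2:**
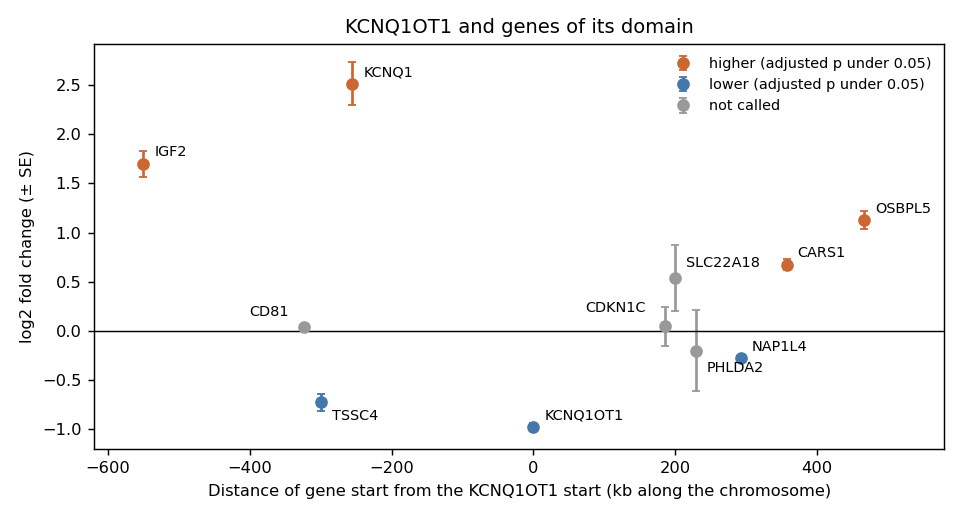
Log2 fold change with its SE for KCNQ1OT1 and the 10 tested genes listed around it, against the distance of each gene's start from the KCNQ1OT1 start in kb. KCNQ1 (2.51) is the highest point and KCNQ1OT1 (-0.98) the lowest, and CDKN1C (0.04 ± 0.20) and PHLDA2 (-0.20 ± 0.41) have wide errors around 0.

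The other genes listed around KCNQ1OT1 did not share 1 direction. They were listed by region, and a place on the list does not mean that KCNQ1OT1 silences a gene. Of 14 listed, 10 had enough counts to be tested. Of these, including KCNQ1, 4 rose and 2 fell, at a median of 0.29. Among all genes tested, 34.5% rose and 32.6% fell, at a median of 0.02. Any link of these changes to the KCNQ1OT1 fall was not tested. CDKN1C, the cell cycle inhibitor gene that KCNQ1OT1 is known to silence, measured 2.86 ± 0.84 and 2.93 ± 0.19 CPM and was not called (edgeR adjusted p = 0.858). OSBPL5, an oxysterol-binding protein gene, rose from 8.25 ± 0.46 to 18.1 ± 0.69 CPM, and CARS1, for cysteinyl-tRNA synthetase, by 0.67 on the log2 scale. IGF2, a growth factor gene farther from KCNQ1OT1, rose from 2.80 ± 0.21 to 9.12 ± 0.45 CPM. TSSC4, the nearest tested gene at lower coordinates, fell by 0.73.

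Genes of Polycomb proteins and other chromatin proteins, listed as partners of TUG1 and KCNQ1OT1, were split. Of 12 tested, 5 rose and 5 fell (41.7% each), with a median of -0.05. Over all genes tested, 34.5% rose and 32.6% fell. The core Polycomb genes SUZ12 (-0.83) and EZH2 (-0.49) fell. The histone chaperone gene RBBP7 (0.40) and the Polycomb accessory gene PHF19 (0.61) rose. DNMT1, the maintenance DNA methyltransferase and named after its values were seen, rose by 0.23.

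PVT1 (ENSG00000249859.14, chromosome 8, 127794533 to 128101253), a multi-exon lncRNA next to MYC, fell. It measured 52.8, 52.0 and 52.3 CPM in Scramble against 38.2, 35.2 and 37.0 CPM in DIS3-sh1. Groups did not overlap, and the log2 fold change was -0.51 ± 0.05 (edgeR adjusted p = 4.67e-10), or 0.703 of the Scramble level. MYC, the proto-oncogene 53099 bp upstream of PVT1, rose slightly from 197 ± 6.23 to 214 ± 4.64 CPM (log2 fold change 0.12 ± 0.03, edgeR adjusted p = 0.00146). The PVT1 to MYC count ratio was 0.258 to 0.272 in Scramble and 0.161 to 0.182 in DIS3-sh1. CYRIB, a regulator of Rac signalling and the next tested gene beyond PVT1 at 1738340 bp, fell by 0.24.

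CYTOR (ENSG00000222041.13, chromosome 2, 87454781 to 87636740), a multi-exon lncRNA linked to cell migration and proliferation, was the least abundant member and had the largest fold change. Scramble libraries held 19.8, 24.5 and 26 expected counts of it, and DIS3-sh1 libraries 58.8, 69.6 and 79.6. In CPM these were 0.86, 1.14 and 1.27 against 2.78, 3.49 and 3.81, with no overlap. The log2 fold change was 1.62 ± 0.22 (edgeR adjusted p = 1.56e-07). Summed by group, 70 Scramble counts stood against 209. Scaled by depth this is a ratio of 3.10, and counting error alone gives it exact 95% bounds of 2.35 and 4.12. NCAL1, a gene that overlaps CYTOR on the same strand, was not called (log2 fold change 0.03 ± 0.10, edgeR adjusted p = 0.771). Its mean was 9.98 CPM with the scramble shRNA, against 10.2 under DIS3-sh1. Whether reads were divided between NCAL1 and CYTOR was not tested, so the CYTOR values do not describe the whole locus.

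CYTOR has a near-identical copy on the same chromosome, MIR4435-2HG, shown here because reads of both can hardly be told apart. CYTOR-201 and MIR4435-2HG-203 were 98.8% identical over 515 aligned positions. The 120-base stretch with the most differences held 3 of them, in capitals.
CYTOR-201 bases 174 to 293: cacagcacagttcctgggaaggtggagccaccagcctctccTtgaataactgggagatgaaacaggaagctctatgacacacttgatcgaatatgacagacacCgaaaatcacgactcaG
MIR4435-2HG-203 bases 159 to 278: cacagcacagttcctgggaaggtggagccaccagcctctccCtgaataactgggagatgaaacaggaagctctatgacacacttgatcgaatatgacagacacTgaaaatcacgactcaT
MIR4435-2HG rose too, from 1.79 ± 0.30 to 4.57 ± 0.21 CPM (log2 fold change 1.36 ± 0.18, edgeR adjusted p = 7.46e-08). The count ratio of CYTOR to its copy overlapped between groups, at 0.551 to 0.712 in Scramble and 0.575 to 0.835 in DIS3-sh1. Split reads make each gene's own share uncertain.

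The promoter windows of the pair, from 250 bases before to 50 after the start in RefSeq (GRCh38.p14), aligned without a difference over 241 bases. That of CYTOR, chr2:87455177-87455476 on the plus strand, is shown with matches to TGAGTCA, the binding motif of AP-1, in capitals.
CYTOR promoter: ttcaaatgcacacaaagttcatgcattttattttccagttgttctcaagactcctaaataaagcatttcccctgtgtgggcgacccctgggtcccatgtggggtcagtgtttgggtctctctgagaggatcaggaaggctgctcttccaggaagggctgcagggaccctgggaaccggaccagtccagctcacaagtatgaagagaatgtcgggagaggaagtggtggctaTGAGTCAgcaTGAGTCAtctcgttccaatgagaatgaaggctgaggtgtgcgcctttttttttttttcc
TGAGTCA was searched on both strands, after the sequence had been seen. Of 35116 such windows, 4.95% held at least 1 match and 0.222% at least 2, as CYTOR did. The window of MIR4435-2HG, in which the alignment ends before the other CYTOR match, held 1, and those of MALAT1, NORAD and TUG1 held 0. A match describes these letters and is not a measured binding site.

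**Figure D3:**
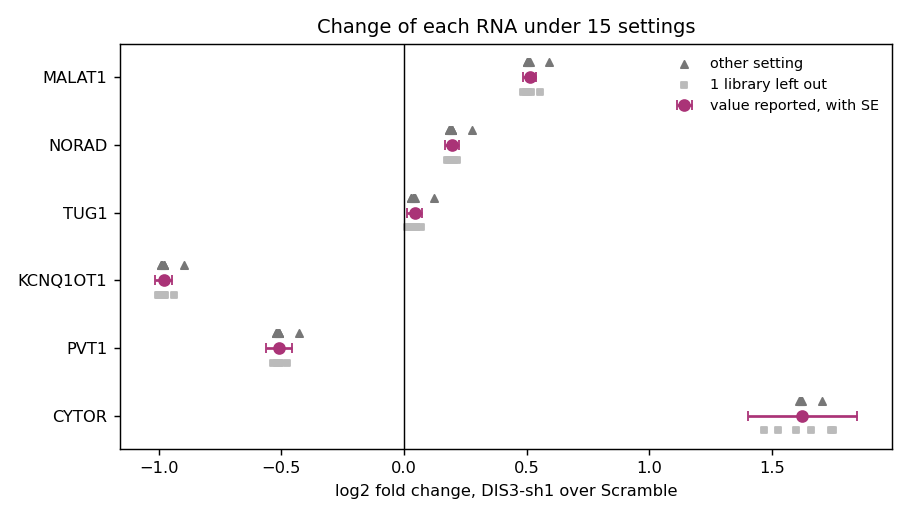
Log2 fold change of DIS3-sh1 over Scramble for each of the 6 RNAs, as reported with its SE (circles), under the other settings (triangles) and with 1 library left out (squares). TUG1 stays within 0.01 to 0.12 in these settings, and each of the other 5 keeps its side of 0.

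The order of levels per length was the same in both groups. In CPM per kb of annotated exon, Scramble means were 125 for MALAT1, 49.3 for NORAD, 21.6 for TUG1, 9.53 for PVT1, 2.21 for KCNQ1OT1 and 0.0617 for CYTOR. DIS3-sh1 means were 179, 56.5, 22.3, 6.70, 1.12 and 0.190 in that order, and no neighbours in it overlapped. By mean CPM over all 6 libraries of both groups, MALAT1 ranked 5, NORAD 10, TUG1 13, KCNQ1OT1 18 and PVT1 58 among 2820 tested lncRNA genes. CYTOR ranked 1097, so calling it abundant goes against these data.

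**Figure D4:**
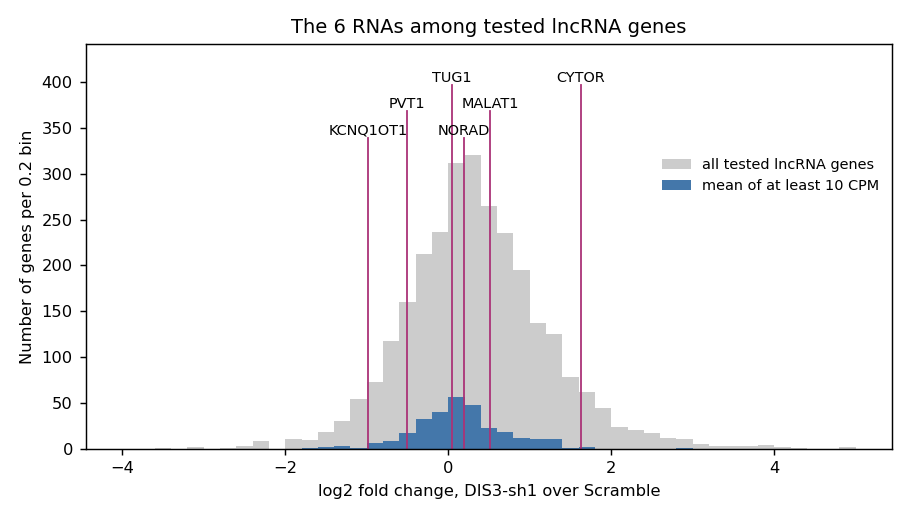
Number of tested lncRNA genes per 0.2 of log2 fold change (grey, all 2820, and blue, the 293 that average 10 CPM or more), with a line at each of the 6 RNAs. The 6 lines run from KCNQ1OT1 at -0.98 to CYTOR at 1.62, on both sides of the peak.

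Tested lncRNA genes as a whole were more often higher than lower. Of 2820, 1107 rose (39.3%) and 361 fell (12.8%), against 34.5% and 32.6% of all genes tested. Their median log2 fold change was 0.29. Of the 293 with at least 10 CPM, 134 rose (45.7%) and 75 fell (25.6%), with a median of 0.12. MALAT1 lay above 78.2% of these 293, NORAD above 56.3%, TUG1 above 43.0% and PVT1 above 9.56%. The 6 RNAs together made up 0.180% to 0.184% of a Scramble library and 0.215% to 0.235% of a DIS3-sh1 library. Their share of all lncRNA counts went from 5.13% to 5.28% in Scramble to 4.37% to 4.90% in DIS3-sh1, and MALAT1 made up 59.7% to 60.1% and then 69.5% to 70.6% of their sum.

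Gene structure did not sort the 6 RNAs by direction. MALAT1, NORAD, TUG1 and KCNQ1OT1 form 1 block when annotated exons are merged, and their values ran from -0.98 to 0.51. PVT1, with 21 blocks, fell and CYTOR, with 25, rose. Among lncRNA genes of at least 10 CPM, 29 of 56 with 1 block rose (51.8%) and 15 fell (26.8%). With more blocks, 105 of 237 rose (44.3%) and 60 fell (25.3%). Over all genes tested, 34.5% rose and 32.6% fell. The longest transcripts of the members other than PVT1 had 40.3% to 43.7% GC, against a median of 47.4% over 2818 lncRNA genes.

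Other well known lncRNAs went both ways. Of 39 tested from a list of 56, 13 rose and 10 fell (33.3% and 25.6%), against 34.5% and 32.6% of all genes tested. For all tested lncRNA genes the shares were 39.3% and 12.8%. For those averaging 10 CPM or more they were 45.7% and 25.6%. The median of the 39 was 0.02. Beside NEAT1, OIP5-AS1, the conserved Cyrano RNA, rose from 107 ± 2.29 to 171 ± 2.87 CPM (log2 fold change 0.68). FTX, a lncRNA of the X inactivation centre, fell from 76.8 ± 2.94 to 44.4 ± 1.94 CPM. SLC25A25-AS1 fell by 1.65.

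Genes whose profile over the 6 libraries was nearest to each RNA were found by the root-mean-square difference of log2 CPM, centred on the Scramble mean. Nearest to KCNQ1OT1 were WBP11, BCLAF1 and ZMPSTE24, at 0.013 to 0.019. APP, LRBA and EIF2S3 were nearest to NORAD, and PKIB, PAK1 and PLCB1 to MALAT1. SEC63, NCR3LG1 and WARS1 were nearest to TUG1, and BCORL1, HNRNPA0 and NOP14 to PVT1. CYTOR was farther from all genes, with MBLAC2, ITGA7 and NTN4 at 0.085 to 0.095. At means of 1.09 and 3.36 CPM in Scramble and DIS3-sh1, it lies below the 5 CPM asked of the genes compared. The 0.5 added before log2 weighs more at such levels. Its copy MIR4435-2HG (1.79 and 4.57 CPM) was below 5 CPM too and was not compared. Of 11971 genes compared, 1613 lay within 0.1 of TUG1 and 254 within 0.1 of KCNQ1OT1. For CYTOR these were 4 of 11972.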

How the data were processed

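Values are expected counts as the authors deposited them, 1 row per gene, many not whole. HISAT2 2.1.0, Bowtie2 2.3.5, featureCounts 1.5.1, SAMtools and build hg38 are named, with no roles, per the submitters' processing notes. Settings, annotation version and strandedness are not given in the sources used here. Of 9 columns of per-sample values, 3 matched no sample label and were not used. Test designs written for 9 libraries were fitted to 6. Values were rounded, scaled by TMM, filtered by edgeR's expression filter and tested with edgeR 4.0.16 in R 4.3.3 (group as the only term, robust quasi-likelihood F-test, two-sided, Benjamini-Hochberg adjustment over 19591 genes, threshold 0.05). Each SE was taken as |log2 fold change| / √F. CPM are TMM-scaled. The labels call the samples replicates without saying that they came from separate cultures, so p-values measure the spread between these samples.

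Coordinates, exons, types and transcripts were read from GENCODE 29 (GRCh38), in which 58298 identifiers were found. RefSeq gave the promoter windows, with entries for MALAT1, NORAD, TUG1, CYTOR and MIR4435-2HG. The fit was tested on simulated data. Alternatives were RLE and upper-quartile scaling, DESeq2 1.42.0, limma-voom 3.58.1, no filter, a replicate block, and leaving out each library. In addition, small structural, ribosomal RNA and mitochondrial genes were left out of a whole fit (19078 genes tested). The 6 members were left out of the scaling alone in another. The members and lists were chosen with earlier results of these data known. The text names the 6 RNAs, DIS3, the 4 genes of each list with the smallest p, neighbours in the genome, the 3 genes of at least 5 CPM nearest in profile (0.5 added before log2) and genes marked as chosen after their values were seen. Some genes that this rule names are not reported here.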

Additional observations from a re-analysis of the deposited data

How the results depend on the processing

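Each of MALAT1, NORAD, KCNQ1OT1, PVT1 and CYTOR kept its direction and its call in all 14 alternatives. TUG1 was called under upper-quartile scaling (0.12, adjusted p = 0.000716) and, among the fits with 1 library left out, in that without DIS3-sh1 replicate 1. Those 6 fits gave TUG1 0.014 to 0.070, and the cause was not tested. Upper-quartile scaling also moved the median of all genes from 0.02 to 0.10. CDKN1C turned without Scramble replicate 2 (-0.15) and without DIS3-sh1 replicate 1 (-0.0090), in a range of -0.15 to 0.26 over such fits. Replicate numbers gave no clear pairing, with correlations of 0.11, 0.05 and 0.00 between deviations of same-numbered libraries. Other pairs lay between -0.10 and 0.07. With 3 libraries per group, a batch shared by number cannot be settled. With the replicate block, MALAT1 was at 0.51, KCNQ1OT1 at -0.98, no call of a member changed, and the calls over all genes went from 6751 higher and 6379 lower to 6769 and 6397. Scramble replicate 2 correlated better with DIS3-sh1 replicate 3 (0.07) than with its own number. The fit on only the 2 groups compared is the fit reported. Results planned for DIS3-sh2 were not run. At 20 to 80 reads per library, CYTOR is the member that depth limits most.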
